A study of Mus musculus with 10 samples.

Results

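The genes described here are 9 members of the transforming growth factor beta (TGF-beta) pathway, measured in the lungs of mice: the ligands Tgfb1, Tgfb2 and Tgfb3, the receptors Tgfbr1 and Tgfbr2, the target gene Tgfbi, and the inhibitors Smad7, Skil and Bambi. They were taken by gene symbol, and all 9 were found among the 33347 genes of the count table. The lungs came from wild-type (WT) mice given bleomycin, a drug that scars the lung, and injected with bone marrow cells that differed in their activity of the enzyme aldehyde dehydrogenase (ALDH). In the ALDHbr group the injected cells had high ALDH activity, and in the ALDHdim group low activity. Each group had 5 libraries, and bleomycin, genotype and the transfer of marrow cells were common to both. Lungs without bleomycin and lungs given bleomycin without cells were not analysed here, so no value below measures the response to bleomycin or to the transfer itself. The labels name no age, sex, dose or day of sampling. The labels also do not say whether the 5 libraries of a group came from 5 animals, so the p-values measure the spread between these libraries, which may in part be technical.

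TGF-beta ligands are secreted as latent complexes, which integrins and proteases open in the tissue. The free ligand binds the type II receptor TGFBR2, which phosphorylates the type I receptor TGFBR1, and TGFBR1 phosphorylates SMAD2 and SMAD3, which enter the nucleus with SMAD4. In the lung the pathway is best known for driving fibroblasts to deposit collagen. SMAD7 blocks the type I receptor, SKIL (also called SnoN) represses SMAD-bound promoters, and BAMBI is a receptor decoy without a kinase, and all 3 are themselves induced by the pathway in many cells, which makes them feedback inhibitors.

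The stretches before the starts of Tgfbi and Tgfbr2 are shown because Tgfbi is the target set against the inhibitors below, and Tgfbr2 is the other member whose level followed it most closely. Both are the reference sequences of RefSeq on GRCm38.p6, read 5′ to 3′ along the gene. The capitals mark the box that SMAD proteins bind, AGAC on either strand and so also written GTCT.

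Tgfbi, chr13:56609336-56609522, plus strand: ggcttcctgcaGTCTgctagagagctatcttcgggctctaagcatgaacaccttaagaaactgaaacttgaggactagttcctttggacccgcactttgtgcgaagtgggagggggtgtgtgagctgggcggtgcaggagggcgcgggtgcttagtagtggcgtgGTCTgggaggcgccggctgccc

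Tgfbr2, chr9:116175364-116175613, minus strand: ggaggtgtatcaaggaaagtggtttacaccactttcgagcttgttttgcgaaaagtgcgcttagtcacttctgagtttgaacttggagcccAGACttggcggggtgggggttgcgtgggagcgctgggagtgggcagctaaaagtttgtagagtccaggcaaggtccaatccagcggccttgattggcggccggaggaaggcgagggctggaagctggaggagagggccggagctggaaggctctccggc

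Promoters were matched for 5 of the 9 members. The 187 bases shown for Tgfbi end before the gene's start in GENCODE M21, since the start used by RefSeq lies further into the gene. The 250 bases before the RefSeq start held 1 box in Tgfb1, 3 in Tgfb2, 1 in Tgfbr2 and 2 in Tgfbi, while the 2 starts of Tgfbr1 had 0 and 2. Such a short box is common: 82.9% of the 32851 promoter windows of that length held at least 1, with a median of 2, so the matches describe the letters and not a site in use.

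The libraries were made by BRB-seq, in which the 3′ ends of polyadenylated RNA are tagged, pooled and counted, so a count does not grow with transcript length and levels are given as CPM, counts scaled to a common library total, without division by length. Total counts ran from 588063 in ALDHbr 2 to 2002947 in ALDHdim 2, and the members together had 397 to 1770 counts a library. The tissue carried its defining markers at high levels, with means of 21873 CPM for the surfactant gene Sftpc, 23490 for the club cell gene Scgb1a1 and 1594 for the alveolar type 1 gene Ager. The libraries numbered 2 stood apart in both groups, at the low end of the first principal component of all tested genes, which held 30.1% of the variance. These are bulk samples, so fewer cells of a type and less RNA per cell cannot be told apart in any value below.

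All 9 members were measured in every library and passed the filter on low counts. Tgfbr2 was the highest, with a mean of 253 CPM over the 10 libraries, and was followed by Tgfbi at 136, Skil at 129, Smad7 at 123, Tgfbr1 at 76.3, Tgfb2 at 72.8, Tgfb3 at 39.9, Tgfb1 at 32.3 and Bambi at 28.2 CPM. The ranges over libraries of every pair of neighbours in that order overlapped. Compared within each library, Tgfbr2 was above Tgfbi and Tgfb2 above Tgfb3 in 10 of 10 libraries, while the other neighbours kept their order in 4 to 7 of 10. By the GENCODE M21 annotation of GRCm38, Tgfb1 is at chr7:25687002-25705077, Tgfb2 at chr1:186622792-186705989, Tgfb3 at chr12:86056745-86079041 and Tgfbr1 at chr4:47353222-47414931. Tgfbr2 is at chr9:116084293-116175360, Tgfbi at chr13:56609523-56639562 and Skil at chr3:31095058-31122577, while Smad7 and Bambi are both on chromosome 18. By their means the type II receptor, the target and the inhibitors Skil and Smad7 lay above the ligands, and the decoy Bambi lay at the bottom beside Tgfb1.

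None of the 9 members passed the test between the transfer groups (edgeR quasi-likelihood test, adjusted p = 0.999 for each over 10844 genes), and the share of all tested genes that passed was 0%. At an unadjusted p under 0.05 the members again gave 0 calls with edgeR, against 3.71% of all tested genes. DESeq2 and limma-voom also gave 0 members at that unadjusted threshold, against 4.39% and 6.36% of the genes they tested. The groups overlapped in CPM for all 9 members, and 0.535% of all tested genes had groups that did not overlap. The 95% interval of the fold difference lay within 2-fold up or down for all 9, as it did for 90.5% of all tested genes. The estimates were higher in ALDHbr for 6 members and lower for 3, with a median log2 fold change of 0.10, beside 51.9% higher and a median of 0.01 over all tested genes. Leaving out any 1 library gave at most 1 member with an unadjusted p under 0.05 (edgeR). Among all tested genes, those under it numbered from 272 of 10998 without ALDHbr 3 to 1141 of 11024 without ALDHbr 1. In the plot of levels by library, the points of both groups overlap in each panel, and Tgfb2 spreads more widely in ALDHbr than in ALDHdim.

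**Figure D1:**
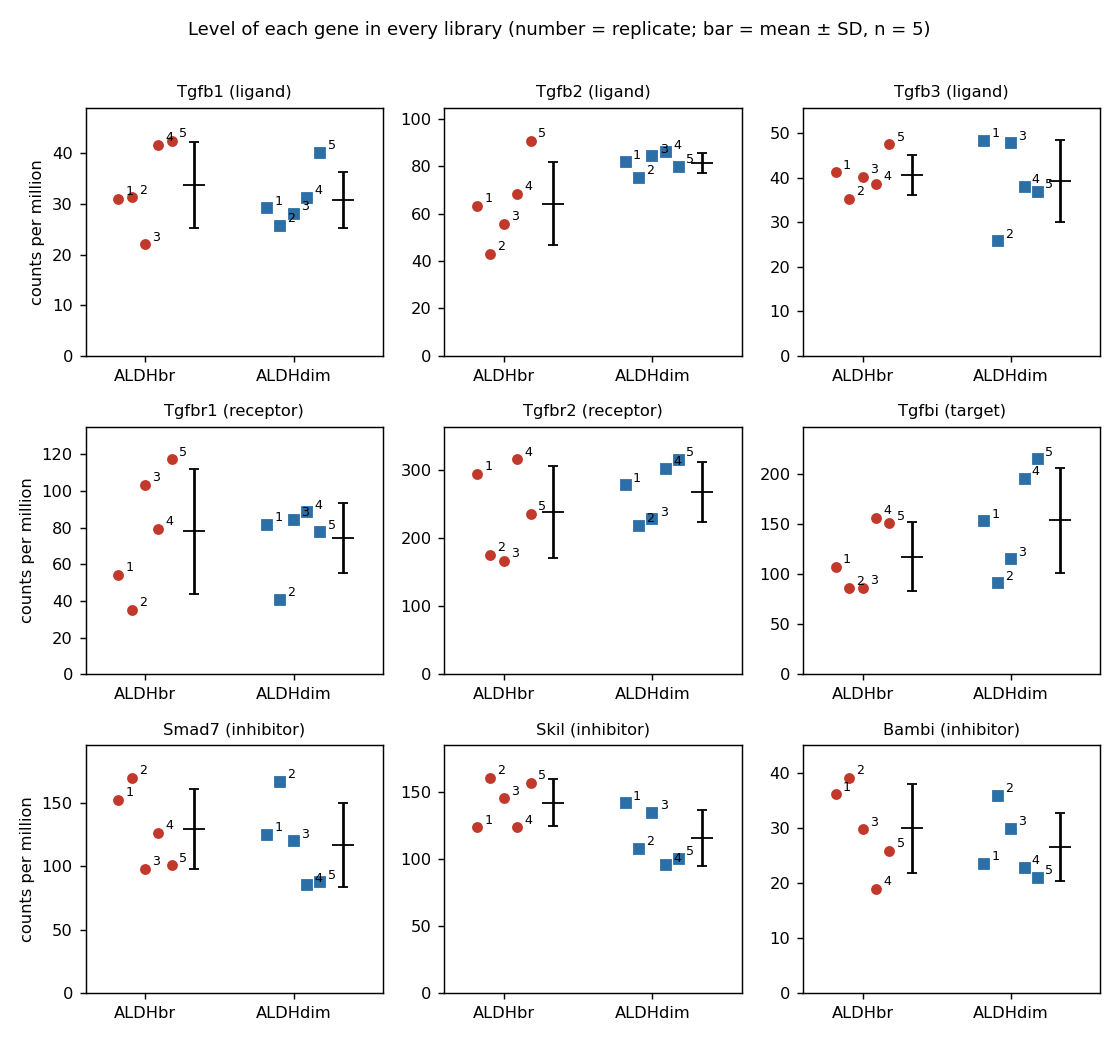
Level of each of the 9 genes in CPM (vertical axis, from 0) in the 5 ALDHbr and 5 ALDHdim libraries. Each point is a library numbered by its replicate, and the black bar is the mean ± SD (n = 5); the groups overlap in every panel, and Tgfbr1 is lowest in the library numbered 2 of each group, at 35.2 and 40.9.

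The ligand genes were expressed at levels within a factor of a few of each other, with Tgfb2 above Tgfb3 and Tgfb1. Tgfb1, the isoform most often tied to fibrosis and made by many immune and stromal cells, had 31.0, 31.3, 22.0, 41.7 and 42.5 CPM in ALDHbr 1 to 5 and 29.1, 25.7, 28.1, 31.2 and 40.1 CPM in ALDHdim 1 to 5. Its highest values were in ALDHbr 4, ALDHbr 5 and ALDHdim 5, and its lowest was in ALDHbr 3. The means were 33.7 ± 8.53 and 30.8 ± 5.54 CPM (SD, n = 5 each), with a log2 fold change of 0.15 (SE 0.20). This gene was counted thinly: its 16 counts in ALDHbr 2 carry a 95% exact Poisson interval of 9.15 to 26.0, which covers counting error only.

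Tgfb2, an isoform prominent in epithelial and smooth muscle cells, had 63.3, 43.0, 55.6, 68.4 and 90.8 CPM in ALDHbr 1 to 5. In ALDHdim 1 to 5 it had 81.6, 75.2, 84.2, 85.9 and 79.7 CPM. The ALDHdim libraries sat close together, and 4 of the 5 ALDHbr libraries lay below all of them, while ALDHbr 5 lay above all of them. The means were 64.2 ± 17.7 in ALDHbr and 81.3 ± 4.18 in ALDHdim (SD, n = 5 each), and the log2 fold change was -0.30 (SE 0.16). The interval ran from 0.64-fold to 1.02-fold (edgeR unadjusted p = 0.074). Without ALDHbr 5 the unadjusted p was 0.0069 and the adjusted p 0.9999 (edgeR).

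Tgfb3, the third mammalian isoform, had 41.2, 35.2, 40.1, 38.5 and 47.5 CPM in ALDHbr 1 to 5 and 48.3, 25.7, 47.6, 37.9 and 36.8 CPM in ALDHdim 1 to 5. Its lowest value was in ALDHdim 2, and the ALDHbr values lay inside the ALDHdim range. The means were 40.5 ± 4.50 and 39.3 ± 9.25 CPM (SD, n = 5 each), with a log2 fold change of 0.07 (SE 0.18), which became -0.05 without ALDHdim 2. Ttll5, on the opposite strand, spans the 3′ end of Tgfb3 without sharing an exon, and had 137 counts in all against 507 for Tgfb3. The sources do not say whether strand was used in counting.

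Of the counts of the 3 ligands in a library, Tgfb2 took 45.9% ± 4.03 in ALDHbr, with a range of 39.3% to 50.2%. In ALDHdim it took 53.9% ± 3.52, with a range of 50.9% to 59.4% (SD, n = 5 each). The shares of Tgfb1 were 24.3% ± 4.07 and 20.4% ± 3.15, and those of Tgfb3 were 29.8% ± 3.59 and 25.7% ± 4.29. These shares are made from the members and are a description with no test. The ranges of the Tgfb2 share did not meet, although those of each ligand's level did. The gap was narrow, between 50.2% in ALDHbr 5 and 50.9% in ALDHdim 5. These libraries had 217 and 285 ligand counts, and ALDHbr 2 had 56, so counting error could close it. Such shares were not made for other sets of genes, so the gap is not read as a difference.

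Of the receptors, Tgfbr1 varied more among libraries than any ligand, and no difference between the groups was detected for either. Tgfbr1, the type I receptor kinase, had 54.5, 35.2, 103.5, 79.5 and 117 CPM in ALDHbr 1 to 5. In ALDHdim 1 to 5 it had 81.6, 40.9, 84.2, 88.4 and 77.5 CPM. The low values were in the library numbered 2 of each group, and the high ones in ALDHbr 3 and ALDHbr 5. The means were 78.0 ± 33.9 and 74.5 ± 19.2 CPM (SD, n = 5 each). The log2 fold change was 0.10 (SE 0.28) and had no stable sign: it was -0.10 without ALDHbr 5, -0.06 without ALDHdim 2 and -0.33 without both ALDHbr 3 and ALDHbr 5.

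Tgfbr2, the type II receptor that binds the ligand first, had 295, 176, 167, 316 and 236 CPM in ALDHbr 1 to 5 and 278, 218, 228, 302 and 315 CPM in ALDHdim 1 to 5. ALDHbr 2 and ALDHbr 3 were the lowest, and the remaining ALDHbr libraries lay among or close to the ALDHdim values. The means were 238 ± 67.6 and 268 ± 43.6 CPM (SD, n = 5 each), with a log2 fold change of -0.16 (SE 0.18). The receptors did not keep a fixed proportion: the count of Tgfbr2 over that of Tgfbr1 ran from 1.61 in ALDHbr 3 to 5.42 in ALDHbr 1, with means of 3.604 ± 1.72 in ALDHbr and 3.79 ± 0.99 in ALDHdim (SD, n = 5 each).

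Tgfbi encodes a secreted matrix protein that takes its name from its induction by TGF-beta, and macrophages and stromal cells both make it. It had 108, 86.1, 86.7, 157 and 151 CPM in ALDHbr 1 to 5 and 153, 90.8, 115, 195 and 215 CPM in ALDHdim 1 to 5. The libraries numbered 2 were low in both groups, as was ALDHbr 3, and the libraries numbered 4 and 5 were high in both. The means were 118 ± 34.2 and 154 ± 52.3 CPM (SD, n = 5 each), and the log2 fold change was -0.36 (SE 0.24), with an interval from 0.54-fold to 1.117-fold. Col1a1, the main chain of type I collagen and the target set beside it, did not pass either, with a log2 fold change of -0.57 (SE 0.58).

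The inhibitors Smad7, Skil and Bambi all had estimates above 0, that is towards ALDHbr, while that of Tgfbi was below 0, and none of the 4 passed the test. Smad7 had 153, 170.2, 98.3, 127 and 101 CPM in ALDHbr 1 to 5 and 125, 167, 119.9, 85.0 and 87.3 CPM in ALDHdim 1 to 5. It was highest in the library numbered 2 of each group and lowest in ALDHdim 4 and ALDHdim 5. The means were 129.7 ± 31.6 and 117 ± 33.4 CPM (SD, n = 5 each), with a log2 fold change of 0.14 (SE 0.20).

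Skil had 123, 160.4, 145, 123.5 and 157 CPM in ALDHbr 1 to 5. In ALDHdim 1 to 5 it had 141, 107, 134, 95.1 and 99.98 CPM. The 3 lowest libraries were all ALDHdim and the 3 highest all ALDHbr, with the other 4 mixed. The means were 142 ± 17.6 and 116 ± 20.9 CPM (SD, n = 5 each). The log2 fold change was 0.29 (SE 0.14), with an interval from 0.99-fold to 1.504-fold and the smallest unadjusted p of the members in edgeR, 0.061.

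Bambi, the least abundant member, had 36.1, 39.1, 29.8, 18.9 and 25.8 CPM in ALDHbr 1 to 5 and 23.4, 35.8, 29.8, 22.7 and 20.9 CPM in ALDHdim 1 to 5. Like Smad7 it was highest in the library numbered 2 of each group. The means were 29.9 ± 8.08 and 26.5 ± 6.18 CPM (SD, n = 5 each), with a log2 fold change of 0.13 (SE 0.22). Its processed pseudogene Bambi-ps1 had 4 counts over all libraries, so few reads were assigned to that copy. The plot of fold changes shows the intervals of all 9 members across 0.

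**Figure D2:**
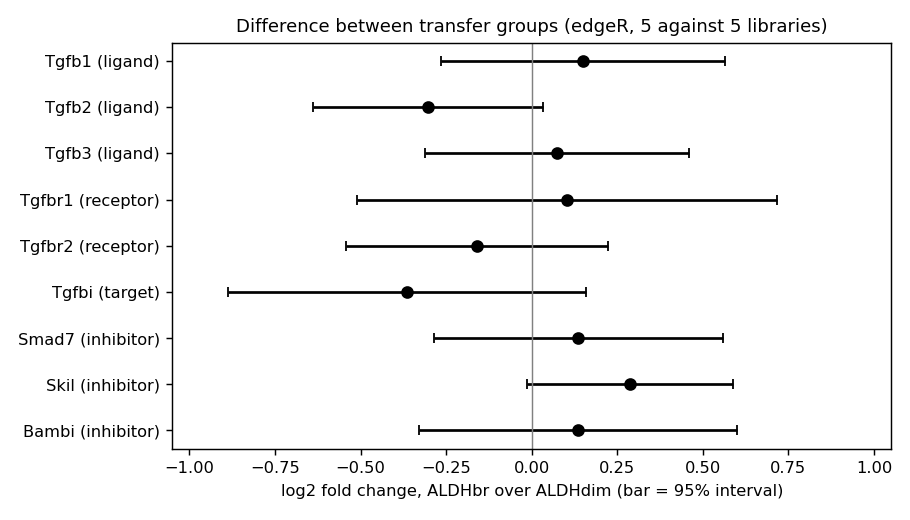
Log2 fold change of ALDHbr over ALDHdim for each gene (horizontal axis) with its 95% interval from edgeR, 5 against 5 libraries. All 9 intervals include 0; Tgfb2, Tgfbr2 and Tgfbi lie to the left and the other 6, with all 3 inhibitors, to the right.

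Set against the inhibitors of the same library, Tgfbi varied over several-fold. The count of Tgfbi per count of Smad7 was 0.705, 0.506, 0.882, 1.24 and 1.496 in ALDHbr 1 to 5 and 1.22, 0.544, 0.957, 2.30 and 2.46 in ALDHdim 1 to 5. The lowest ratios were in the libraries numbered 2 and the highest in ALDHdim 4 and ALDHdim 5, a spread of 4.86-fold. Per count of Skil the ratio was 0.847 ± 0.295 in ALDHbr and 1.40 ± 0.651 in ALDHdim (SD, n = 5 each), with a spread of 4.004-fold over the 10 libraries. Per count of Bambi it was 4.45 ± 2.56 and 6.36 ± 3.21, with a spread of 4.68-fold.

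Against the sum of the 3 inhibitors, Tgfbi had 0.402 ± 0.149 counts in ALDHbr and 0.644 ± 0.334 in ALDHdim (SD, n = 5 each). The range was 0.233 in ALDHbr 2 to 1.03 in ALDHdim 5, and the groups overlapped for each of the 4 ratios. The ratios are a description with no test. The plot of ratios shows the overlap of the groups and the spread inside each.

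**Figure D3:**
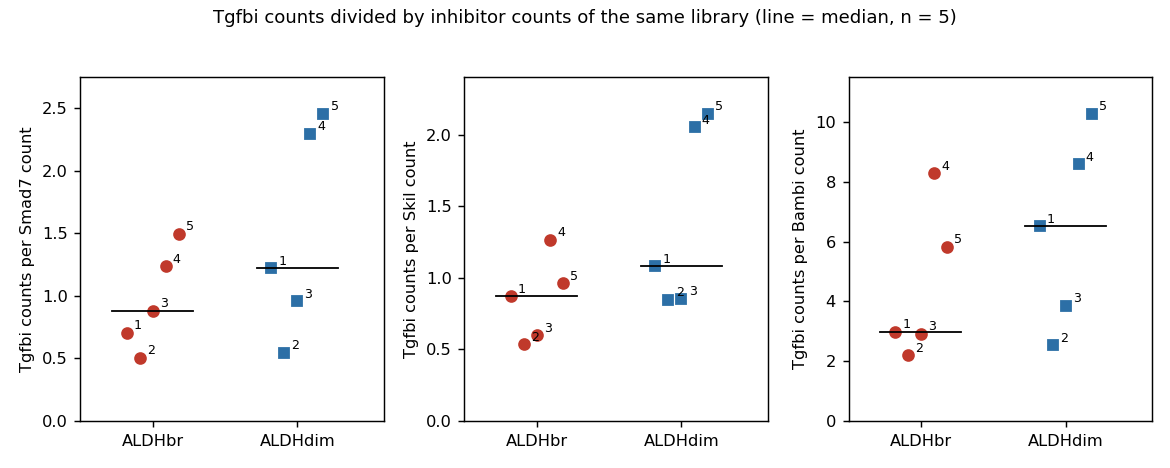
Tgfbi counts divided by the Smad7, Skil or Bambi counts of the same library (vertical axes, from 0), with the median of each group as a line (n = 5) and replicate numbers beside the points. The library numbered 2 is the lowest of its group in each panel, and ALDHdim 4 and ALDHdim 5 are the highest of theirs.

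Across the 10 libraries Tgfbi fell as Bambi rose, and rose with Col1a1. The levels were compared as log2 CPM, with p-values adjusted over the 6 relations planned for Tgfbi. With Bambi, Pearson's r was -0.87 (permutation p = 0.0023, adjusted 0.0069) and Spearman's rho -0.88 (permutation p = 0.00162, adjusted 0.00486). Leaving out ALDHbr 2 and ALDHbr 4, the libraries farthest from the median of Bambi, gave r = -0.89 (exact permutation p = 0.00456). Among the 10843 other tested genes, 154 (1.42%) had an r with Tgfbi at least as far from 0 as that of Bambi. The same share was 0.655% for Col1a1, 10.99% for Smad7, 12.9% for Tgfb1 and 28.2% for Skil.

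With each gene centred within its group, the r for Bambi was again -0.87 (exact permutation within groups, adjusted p = 0.00417). Without both libraries numbered 2, r was -0.79 and did not pass after adjustment (exact permutation p = 0.0228, adjusted 0.0685). With each gene centred within its replicate number r was -0.59, in a test of 32 permutations whose smallest possible p is 0.0625 (exact permutation p = 0.375).

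Smad7 and Skil also ran against Tgfbi, but neither passed after adjustment. For Smad7 r was -0.70 (permutation p = 0.0307, adjusted 0.0539) and rho -0.62 (permutation p = 0.0613). It became -0.41 without ALDHdim 4 and ALDHdim 5, and -0.49 without both libraries numbered 2 (exact permutation p = 0.217). Much of the relation thus rests on the libraries at its ends. The r for Smad7 became -0.93 without ALDHbr 3 (permutation test, adjusted p = 0.00226). For Skil r was -0.52 (permutation p = 0.125, adjusted 0.125) and rho -0.60 (permutation p = 0.073). Without ALDHdim 4 and ALDHdim 5 the r for Skil was 0.064, so that relation rests on those libraries. In the plot of Tgfbi against the inhibitors, the Bambi panel has high Tgfbi on the left and low Tgfbi on the right. Where Bambi was 18.9 to 25.8 CPM, Tgfbi was 151 to 215 CPM. Where Bambi was 29.8 to 39.1 CPM, Tgfbi was 86.1 to 115 CPM. The shape of the relation was not tested.

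**Figure D4:**
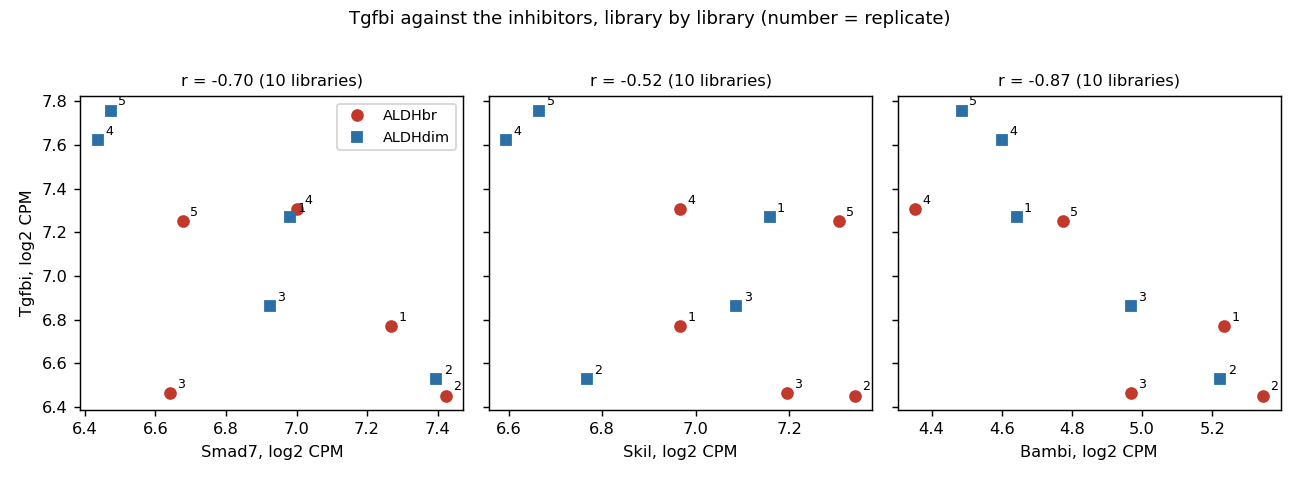
Tgfbi (vertical axis) against Smad7, Skil and Bambi (horizontal axes), all as log2 CPM, one point a library with its replicate number and group. The points fall from upper left to lower right most tightly for Bambi (r = -0.87), then Smad7 (-0.70) and Skil (-0.52).

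Beside the inhibitors, Tgfbi was compared with Col1a1 and Tgfb1, and followed Col1a1 more closely. Its r was 0.90 (permutation p = 7e-05, adjusted 0.00042), rho was 0.92 (permutation p = 0.00034), and r was 0.85 without ALDHbr 2 and ALDHbr 3. Col1a1 ran from 103 CPM in ALDHbr 3 to 888 CPM in ALDHdim 5. Tgfb1 itself had r = 0.67 with Tgfbi (permutation p = 0.0359, adjusted 0.0539) and rho = 0.50 (permutation p = 0.145), with r = 0.61 without the 2 libraries farthest from its median. It passed without ALDHdim 4 (r = 0.76, permutation test, adjusted p = 0.0408) and with genes centred within groups (r = 0.83, adjusted p = 0.00417). Centred within replicate numbers, its r turned to -0.19 (exact permutation p = 0.625).

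The levels of Tgfbi, Smad7 and Bambi moved with marker genes of several cell types, over 54 relations adjusted together, in which Skil was not included. They also moved with the first principal component of all tested genes. Its r was -0.90 with Smad7 and -0.80 with Bambi (permutation test, adjusted p = 0.00621 and 0.0239). With Tgfbi it was 0.69, which did not pass (adjusted p = 0.0808). Without both libraries numbered 2 it was -0.83 with Smad7 and -0.61 with Bambi (exact permutation p = 0.0108 and 0.107). Whether the relations with the markers go beyond that component was not tested. Tgfbi rose with the summed level of 6 recruited macrophage and monocyte markers (r = 0.79, permutation test, adjusted p = 0.0296) and of 6 fibroblast markers (r = 0.79, adjusted p = 0.0264). It fell with the 2 alveolar type 1 markers and with the 2 alveolar type 2 markers (r = -0.85 for each, permutation test, adjusted p = 0.0163 and 0.0211). Bambi had r = 0.90 with the alveolar type 1 markers (adjusted p = 0.00621) and r = -0.85 with the recruited macrophage and monocyte markers (adjusted p = 0.0169), and its r of -0.45 with the fibroblast markers did not pass (adjusted p = 0.359). Smad7 had r = -0.91 with the recruited macrophage and monocyte markers (adjusted p = 0.00684) and 0.82 with the 3 endothelial markers (adjusted p = 0.0239). It also rose with the alveolar type 1 and type 2 markers (r = 0.76 and 0.74, permutation test, adjusted p = 0.0329 and 0.0468). Without the 2 libraries farthest from the median of each sum, these became 0.58 and 0.55 (exact permutation p = 0.136 and 0.160). The r of Smad7 with the endothelial markers became 0.70 (exact permutation p = 0.0521). Tgfbi then had r = 0.70 with the fibroblast and 0.67 with the recruited macrophage and monocyte markers (exact permutation p = 0.0570 and 0.0717). The other marker relations that passed above kept an unadjusted p under 0.05 (exact permutation test).

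Of the 6 recruited macrophage and monocyte markers, 5 had a positive r with Tgfbi and 5 a negative r with Bambi and with Smad7. Their summed level ran from 430 to 2957 CPM in ALDHbr and from 412 to 4046 CPM in ALDHdim, with the lowest value of each group in its library numbered 2. Most of that range came from Spp1, and without it the other 5 ran from 249 to 803 CPM, with r = 0.84 for Tgfbi (permutation test, adjusted p = 0.0211). Without both libraries numbered 2, r with the sum of all 6 was 0.67 for Tgfbi, -0.74 for Bambi and -0.82 for Smad7. The fibroblast sum ran from 856 to 1603 CPM in ALDHbr and from 1086 to 1740 CPM in ALDHdim, and 4 of its 6 markers had a positive r with Tgfbi. The alveolar type 1 sum ran from 2633 to 4874 CPM and from 2370 to 3515 CPM, and the alveolar type 2 sum from 19066 to 39885 CPM and from 17097 to 31447 CPM. The endothelial sum ran from 598 to 1282 CPM and from 586 to 1416 CPM. None of these markers was at 0 in any library, and their part in the relations among the members was not tested.

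Among all 36 pairs of the 9 members, an analysis added after the data were seen, the signs of r differed by role, with Skil as an exception. The 15 pairs among the ligands, receptors and Tgfbi all had a positive r, from 0.16 to 0.82, and so did the 3 pairs among the inhibitors. The 12 pairs of Smad7 or Bambi with the ligands, receptors and Tgfbi all had a negative r, from -0.87 to -0.23, while Skil had 2 positive and 4 negative. In all, 20 had a positive r and 16 a negative r. By Pearson's r, 2 passed after adjustment over the 36 pairs, both of them negative: Tgfbi with Bambi (r = -0.87, permutation test, adjusted p = 0.0441) and Tgfbr1 with Smad7 (r = -0.83, rho = -0.75, permutation p = 0.00245, adjusted 0.0441). Without the 2 libraries farthest from the median, the second pair had r = -0.98. The closest positive pair was Tgfbr2 with Tgfbi (r = 0.82, rho = 0.88, permutation p = 0.00481, adjusted 0.0577), which gave 0.74 without 2 libraries. By Spearman's rho the pairs that passed were Tgfbi with Bambi and Tgfbr2 with Tgfbi (permutation test, adjusted p = 0.0292 for each), and Tgfbr1 with Smad7 did not (adjusted p = 0.180). Smad7 with Bambi had r = 0.70 (permutation p = 0.030, adjusted 0.138).

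Much of this pattern rested on the libraries numbered 2, which were low in Tgfbr1 and Tgfbi and high in Smad7 and Bambi. Without both of them 0 of the 36 pairs passed after adjustment (exact permutation test over 8 libraries) and 3 had an unadjusted p under 0.05, against 10 with all libraries. Of the 15 pairs among ligands, receptors and Tgfbi, 10 were then positive and 5 negative, and of the 12 pairs with Smad7 or Bambi 9 were negative and 3 positive. Tgfbr1 with Smad7 had r = -0.62 (exact permutation p = 0.0935, adjusted 0.374), and Tgfbi with Bambi had r = -0.79 (exact permutation p = 0.0228, adjusted 0.374). The map of pair correlations shows the values for all 10 libraries. Pairs share libraries and the scaling of each library, so they are not independent of each other. The pairs of other sets of genes were not counted, so these counts and signs are not read as particular to the members or their roles. For r with Tgfbi, 3.06% of the other tested genes were at least as far from 0 as Tgfbr2. That share was 13.1% for Tgfb2, 28.3% for Tgfbr1 and 57.2% for Tgfb3.

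**Figure D5:**
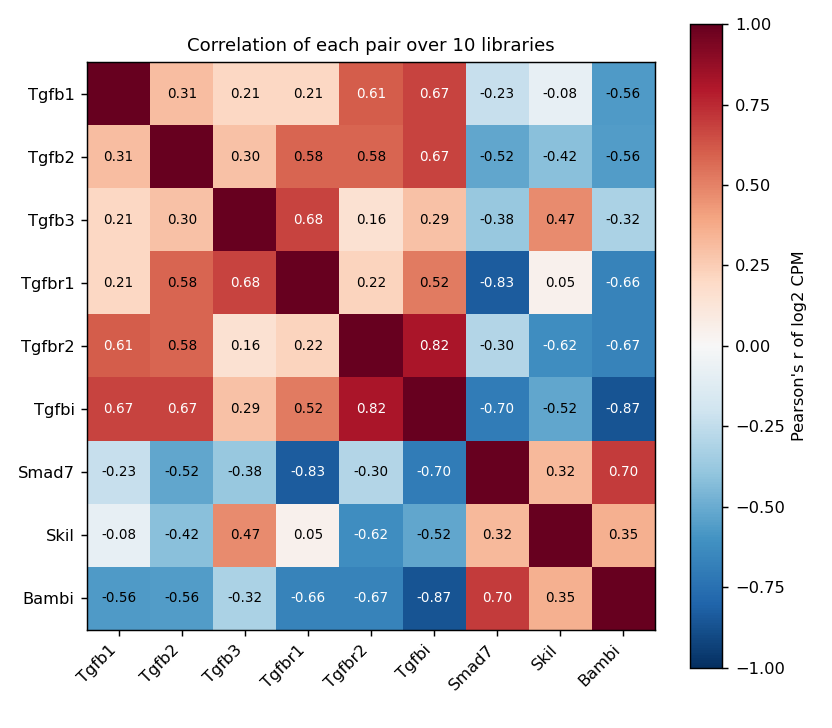
Pearson's r of log2 CPM for each pair of the 9 genes over 10 libraries, printed in each cell and coloured from -1 (blue) to 1 (red). The lowest values are -0.87 for Tgfbi with Bambi and -0.83 for Tgfbr1 with Smad7, and the highest is 0.82 for Tgfbr2 with Tgfbi.

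For each member the nearest patterns were sought among 7452 genes with a mean of at least 20 CPM, by r over the 10 libraries and as a description. Tgfbi was most like Mmp14, a membrane-bound collagenase (r = 0.99), and Uck2 (0.97). Smad7 was most like Jun, an immediate-early transcription factor, and Ramp2, an endothelial receptor partner (0.98 each). Bambi was most like Twsg1, a secreted binder of bone morphogenetic proteins (0.97), and Kctd2 (0.96). Tgfbr1 was nearest to Tmem165 and Steap2 (0.97 each), and Tgfbr2 to Esyt1 (0.96) and Ubap2 (0.95). Skil was nearest to Pih1d1 (0.94) and Ak3 (0.92), Tgfb2 to Cept1 (0.95) and Mmgt1 (0.93), and Tgfb1 to Commd4 and Pes1 (0.92 each). Tgfb3 had the loosest matches, Jagn1 and Tmem237 (0.82 each). A search over that many genes picks out high values of r by its construction.

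The rest of the pathway was read from 6 lists, of which 111 of 115 genes were in the table and 88 passed the filter on low counts. No list gene passed the test (edgeR, adjusted p = 0.999 or above), and 1 of the 88 had an unadjusted p under 0.05, against 3.71% of all tested genes. The estimates leaned towards ALDHdim, with 28 higher (31.8%) and 60 lower in ALDHbr and a median log2 fold change of -0.11. Over all tested genes 51.9% were higher and the median was 0.01. List genes that rise and fall together across libraries are not separate observations, and the lean was not tested. None of the 88 had groups that did not overlap, against 0.535% of all tested genes.

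The latency and activation list, which holds the genes that store and release the ligands, had 4 estimates higher and 12 lower of 16, with a median of -0.18. Its Itgb3, the integrin beta 3 chain, gave the 1 unadjusted call, with 7.28 ± 5.07 CPM in ALDHbr and 15.4 ± 3.33 CPM in ALDHdim (SD, n = 5 each) and a log2 fold change of -0.89 (SE 0.34, edgeR unadjusted p = 0.0166). Its counts were low, from 1 to 38 a library. Itgb1, the widely shared integrin beta 1 chain, had 460 and 534 CPM with a log2 fold change of -0.21 (SE 0.13). Lrrc32, which tethers latent TGF-beta to the cell surface, had -0.38 (SE 0.25), and the activator Thbs1 -0.20 (SE 0.54).

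The target list had 6 estimates higher and 22 lower of 28, with a median of -0.16. Postn, a matrix protein of fibrotic tissue, had 127 and 186 CPM with a log2 fold change of -0.52 (SE 0.33), Sphk1 had -0.29 (SE 0.18), Sparc had 3453 and 3720 CPM with -0.11 (SE 0.20), and Col3a1 had -0.30 (SE 0.50).

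The other inhibitors had 8 estimates higher and 13 lower of 21, with a median of -0.06. Ski, the close relative of Skil, had 103 CPM in ALDHbr and 126 in ALDHdim, and a log2 fold change of -0.28 (SE 0.17) against 0.29 (SE 0.14) for Skil; the difference between these genes was not tested. Grem1, an antagonist of bone morphogenetic proteins, had 5.83 and 14.4 CPM with -1.12 (SE 0.66) and was at 0 counts in ALDHbr 2. Wwp2, a ubiquitin ligase, had -0.30 (SE 0.22), and the proteoglycans Bgn and Dcn, which bind the ligand, had -0.24 (SE 0.20) and -0.12 (SE 0.15).

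The list of the Smads, which carry the signal, and of proteins that act with them had 3 estimates higher and 4 lower of 7. The median of that list was -0.03. Smad5 had 59.9 and 71.4 CPM with a log2 fold change of -0.23 (SE 0.13), and Smad4, the shared partner, had 88.7 and 101 CPM with -0.18 (SE 0.13). Zfyve9, which presents SMADs to the receptor, had 0.24 (SE 0.19).

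The other receptors and co-receptors had 4 estimates higher and 5 lower of 9, with a median of -0.07. The activin receptors Acvr2a, Acvr1b and Acvr2b had log2 fold changes of 0.35 (SE 0.21), -0.22 (SE 0.15) and 0.31 (SE 0.33). Bmpr2 had -0.13 (SE 0.18) and the endothelial receptor Acvrl1 0.11 (SE 0.30). The other ligands of the superfamily had 3 higher and 5 lower of 8, with a median of -0.04, and 8 of the 16 in the table were too low to test. Inhbb had -0.44 (SE 0.29), Bmp6 -0.58 (SE 0.46), Gdf15 -0.37 (SE 0.54), Bmp4 -0.01 (SE 0.17) and Bmp3 0.11 (SE 0.26).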

How the data were processed

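One table of raw counts was deposited for the 10 lung libraries. The submitters' processing notes name HISAT2 2.2.1 as an aligner, featureCounts 2.0.1 as a counter, Trim Galore 0.6.7, UMI-tools, DESeq2, and the builds GRCm38 and GRCh38 without roles. Per the labels' protocols, reads carry a UMI of 10 bases and libraries were pooled before amplification. The sources do not say whether the authors collapsed UMIs or used strand in these counts, which bears on the counting error of low genes.

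From these counts, edgeR 4.0.16 (R 4.3.3) was run with TMM scaling, a minimum count of 10 (filterByExpr), a robust quasi-likelihood fit and Benjamini-Hochberg adjustment over all 10844 tested genes at a threshold of 0.05. These genes hold 97.3% of the counts, and the common biological coefficient of variation was 19.7%. CPM is over the tested genes' counts. Correlations used log2 CPM with a prior count of 2 and 100000 resamples, or all permutations with fewer than 10 libraries, two-sided. Alternatives were DESeq2 1.42.0, limma 3.58.1 (voom with sample weights), other scalings, filters and thresholds, the replicate number as a block, and libraries left out. The edgeR script was tested on simulated data. No 2 libraries agreed within sampling noise (lowest chi-square per degree of freedom 2.40).

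The members and lists were chosen with earlier results of these data known. Genes named are the members, the 3 of smallest p and the 2 of highest level in each list, Col1a1, and the 2 genes most like each member, without predicted or clone names. One of the 6 planned relations of Tgfbi, and a gene that the rule names, are not reported here. The gene of smallest p of all was Bbof1 (log2 fold change -1.17, SE 0.26, edgeR unadjusted p = 0.000314).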

Additional observations from a re-analysis of the deposited data

Results flagged for a closer look

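Tgfbr1 in ALDHdim 2 lay far below the other ALDHdim libraries, at 40.9 CPM against 77.5 to 88.4 CPM, a gap of 0.770 of the range of the group. ALDHbr 2 was also the lowest of its group, at 35.2 CPM. In all, 26 sets of 5 values were looked at for a value that stands apart, of which chance gives about 1.3, and 1 was found.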

How the results depend on the processing

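No member passed the adjusted threshold under any alternative run, and the lowest adjusted p of a member was 0.24, for Tgfbi with no low-count filter. In that run 2 members had an unadjusted p under 0.05 (edgeR), as did 3844 of all 33347 genes. Genes past the threshold numbered 0 and became 185 with no low-count filter and 402 at an unadjusted p under 0.05, where 1 list gene, Itgb3, was called. The samples of a group share only a replicate number with those of the other: the deviations of same-numbered libraries had r of 0.06 to 0.37, over 0.1 for 4 of the 5 numbers, and 7 of 10 libraries were closest to their own number. With the replicate number as a block, 0 genes passed, 727 had an unadjusted p under 0.05, and among them were 3 members, with Tgfbi lowest (edgeR unadjusted p = 0.00588, adjusted 0.73). Between libraries of the same number, Tgfbi in CPM and each of its 4 ratios to the inhibitors were lower in ALDHbr in 5 of 5. These measures all hold the Tgfbi counts, so they are not separate observations. How many of all tested genes went the same way in 5 of 5 was not counted. Removing the filter moved the median log2 fold change of all genes from 0.01 to 0.22, and DESeq2, which tested 33347 genes, gave 0.28. Estimates were higher for 6 members in each setting except 5 without ALDHbr 5 or without both ALDHbr 3 and ALDHbr 5, and 4 without ALDHdim 2.

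With 1 library left out, log2 fold changes ran from -0.054 to 0.16 for Tgfb3, -0.10 to 0.24 for Tgfbr1, -0.46 to -0.22 for Tgfb2, -0.51 to -0.20 for Tgfbi and 0.22 to 0.37 for Skil. Those that changed sign among the other named genes ran from -0.66 to 0.12 for Thbs1, -0.69 to 0.070 for Gdf15, -0.24 to 0.067 for Bmp4, -0.030 to 0.43 for Bmp3 and -0.089 to 0.32 for Acvrl1, and Bmpr2 reached 0.018. Limma-voom gave 0.093 for Gdf15 and -0.027 for Acvrl1. Without both ALDHbr 3 and ALDHbr 5, Tgfbr1 was -0.33 and Bmp4 0.12.

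For the correlations with Tgfbi, leaving out 1 library gave -0.93 to -0.61 for Smad7, -0.72 to -0.37 for Skil, -0.91 to -0.83 for Bambi, 0.59 to 0.76 for Tgfb1 and 0.87 to 0.97 for Col1a1. Tgfb1 passed without ALDHdim 4 (0.76, permutation test, adjusted p = 0.0408). Without both ALDHbr 3 and ALDHbr 5, Smad7 passed with -0.94. Without the 2 libraries farthest from the median, Skil became 0.064. Centred within groups, Tgfb1 passed with 0.83. Centred within replicate numbers, a setting chosen after seeing the data, Bambi was -0.59, Tgfb1 -0.19 and Col1a1 0.70. Without both libraries numbered 2, also chosen after seeing the data, Bambi was -0.79, and 0 of the 36 member pairs passed against 2 with all libraries. The cause of these changes was not tested, except that fewer libraries or permutations were available in several. Members with few counts, Tgfb1, Tgfb3 and Bambi, are limited by depth in ALDHbr 2, where they had 16, 18 and 20 counts.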
